A study of Homo sapiens with 16 samples.

Results

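The genes described here are 39 members of the epidermal differentiation complex, a cluster on chromosome 1 that encodes structural proteins of the outer skin. They were chosen by symbol alone, as every late cornified envelope gene (LCE followed by a digit), every small proline rich gene (SPRR followed by a digit) and 8 further genes, FLG, FLG2, HRNR, RPTN, TCHH, TCHHL1, CRNN and IVL. The table of transcription start sites held 49 distinct windows of 2000 bp for these genes, each reaching 1 kb to either side of an annotated start, out of 237274 distinct windows of 68302 genes. Reads were summed per gene over its windows. The members comprised 19 LCE genes, 12 SPRR genes, 7 genes of the S100-fused type and involucrin (IVL), and their windows spanned 1063.8 kb, from base 152088064 to base 153151890 of chromosome 1 in the hg38 build, with 18 genes on the minus strand.

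H3K9me2, dimethylated lysine 9 of histone H3, is a mark of silent chromatin, and here it was measured by ChIP-seq, in which chromatin fragments bound by an antibody are sequenced beside input, the same chromatin without antibody. The cells were BJ-5ta, an established line of human skin fibroblasts immortalized with telomerase, so that every group shares the telomerase transgene. Wild-type cells were compared with ΔLEO1, a single clone in which CRISPR/Cas9 had been directed at the beginning of LEO1, the gene of a subunit of the PAF1 complex that travels with RNA polymerase II. Each genotype was grown proliferating in 10% serum or made quiescent by 10 days in 0.1% serum, and each of the 4 conditions had ChIP and input libraries marked A and B, 16 in all. H3 is all that the labels say of the antibody, so H3K9me2 rests on the design text and the study's methods.

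The epidermal differentiation complex is switched on when keratinocytes, the cells of the epidermis, leave the basal layer and harden into dead, flattened cells. Involucrin is laid down early beneath the cell membrane and is cross-linked by transglutaminases, SPRR proteins and LCE proteins are added to this cornified envelope, and filaggrin, the product of FLG, bundles keratin filaments inside the cell. Fibroblasts lie in the dermis and do not make a cornified envelope.

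Reads over genes ranged from 1898635 to 3270955 in 7 ChIP libraries and from 2849518 to 7963202 in the 8 inputs. The ΔLEO1 10% serum ChIP library A held 50 reads over all genes and 0 at the members, and it was left out, so ΔLEO1 in 10% serum is represented by 1 ChIP library. The labels do not say whether A and B came from separate cultures, so p-values measure only the spread between these libraries. Over genes, the wild-type 0.1% serum pairs differed by no more than counting noise (chi-square per degree of freedom 1.01 for ChIP, p = 0.0576, and 1.006 for input, p = 0.145), but over peak regions both differed by more than that (1.492 and 1.095), and they were kept as separate libraries. At LEO1, summed over 3 windows, the input read count was not lost in ΔLEO1. Levels are given as CPM, counts scaled by library total and TMM factor (the trimmed mean of M-values) and, for genes with several windows, divided by their number. The inputs gave 3.66 to 5.21 CPM per window in ΔLEO1 and up to 6.93 in wild type, with a log2 difference of -0.37 ± 0.17 (SE) and an adjusted p of 0.851 (edgeR, quasi-likelihood F-test, adjusted over all genes after Benjamini and Hochberg), so these windows do not check the genotype labels.

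The promoters of the members were examined first, because the windows are centred on them. RefSeq (GRCh38.p14) gave a promoter for 35 of the 39 genes, and all 35 starts lay within 50 bp of the middle of a member window. In the 250 bases before the start, the TATA motif TATAAA was found on either strand in 23 of 35 promoters (65.7%), against 10.7% of 35116 promoters of all genes. On the strand of the gene, and starting 25 to 35 bases before the start, it was found in 20 members (57.1%) and in 2.17% of all promoters. TGANTCA, the letters bound by AP-1 factors, which drive many epidermal genes, was found in 13 members (37.1%) against 6.57%. These were 6 of 7 S100-fused type promoters, 6 of 9 SPRR promoters, IVL and 0 of 18 LCE promoters. The GC box GGGCGG was found in 0 of 35 members and in 42.6% of all promoters, and the E-box CANNTG in 31 members (88.6%) against 61.8%. The members' promoters were poor in CpG, with a median of 1 CpG (range 0 to 5) in 250 bases against 11 over all promoters, and a median GC content of 50.4% against 58.0%. The 4 motifs were searched on both strands unless stated, and matches of different motifs may overlap.

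The 100 bases before the start are shown for the 3 members with the highest ChIP over input, the 3 with the lowest, and FLG and TCHH, so that both ends of the range described below can be compared. Capitals mark TATAAA and TGANTCA on either strand. The stretches are chr1:152663280-152663379 (LCE2D, plus strand), chr1:152859896-152859995 (LCE7A, plus), chr1:152908446-152908545 (IVL, plus), chr1:152115445-152115544 (TCHH, minus), chr1:152325240-152325339 (FLG, minus), chr1:153150891-153150990 (SPRR2G, minus), chr1:152796621-152796720 (LCE1D, plus) and chr1:152510703-152510802 (LCE5A, plus), all in GRCh38.p14 and read 5′ to 3′ on the strand of the gene.
LCE2D: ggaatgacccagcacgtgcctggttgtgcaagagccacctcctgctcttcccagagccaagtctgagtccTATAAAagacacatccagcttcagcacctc
LCE7A: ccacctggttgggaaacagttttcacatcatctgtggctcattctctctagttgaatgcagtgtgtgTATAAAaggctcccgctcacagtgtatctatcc
IVL: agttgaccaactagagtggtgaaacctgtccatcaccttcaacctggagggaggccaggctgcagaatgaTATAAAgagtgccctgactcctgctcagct
TCHH: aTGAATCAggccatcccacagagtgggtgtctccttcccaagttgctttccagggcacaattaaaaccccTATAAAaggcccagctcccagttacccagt
FLG: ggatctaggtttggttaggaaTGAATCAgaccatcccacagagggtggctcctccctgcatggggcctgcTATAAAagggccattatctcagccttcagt
SPRR2G: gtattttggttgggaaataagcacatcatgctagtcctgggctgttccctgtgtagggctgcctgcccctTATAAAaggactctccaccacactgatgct
LCE1D: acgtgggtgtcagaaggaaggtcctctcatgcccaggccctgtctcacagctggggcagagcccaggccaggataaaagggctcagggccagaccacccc
LCE5A: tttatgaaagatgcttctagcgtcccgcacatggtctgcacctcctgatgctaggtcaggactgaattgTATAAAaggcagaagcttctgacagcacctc
A TATA motif stood 30 bases before the start in LCE2D, IVL, TCHH, FLG and SPRR2G, 31 bases before it in LCE5A and 33 bases before it in LCE7A, and was therefore present at both ends of the range. It was not matched in LCE1D. TCHH and FLG each carried TGAATCA farther upstream.

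LCE3B and LCE3C, neighbouring late cornified envelope genes, had 0 reads in all 16 libraries. Their 3 windows lie in a stretch of 40587 bp between the windows of LCE3D and LCE3A, which held 6 to 35 reads in each input and 176 and 200 input reads in sum. A count of 0 in 65199378 reads over all genes in 15 libraries allows up to 0.0460 CPM (3 counts, counting error only), whereas the mean input of the other 37 members ranged from 3.87 to 5.53 CPM per window. Both genes are known as the site of a common deletion in people. Absence of the DNA and reads that were not assigned to these windows cannot be told apart from the counts, and 13.1% of all genes in the table also had 0 reads in all 16 libraries. The 2 genes could not be tested, and results below are for the other 37 members, all of which passed the filter on low counts.

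The first comparison asked how far H3K9me2 ChIP exceeded input at these genes. Most members lay above input, led by late cornified envelope genes and involucrin, while genes that fibroblasts use lay far below it. The fitted log2 ratio of ChIP over input, as the mean of the 4 conditions, had a median of 0.58 over the 37 members and of 0.13 over all 57627 genes tested. In the quasi-likelihood F-test of edgeR, adjusted over all genes after Benjamini and Hochberg, 24 of 37 members (64.9%) were called higher in ChIP and 0 lower, where 39.3% of all genes were called higher, 33.8% lower and 73.1% either way. The ratio was above 0 in 34 of the 37 and below 0 in 3 (8.11%), where it was below 0 in 45.1% of all genes. With non-overlapping windows it was above 0 in 29 members and below 0 in 8, and 21 were called higher, against 33.9% of all genes.

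The level of this ratio depends on how ChIP and input libraries are scaled to each other, and 3 scalings were tried. The median over all genes was 0.13 with TMM, 0.37 with library totals and -1.42 with reads over peak regions as library sizes. The members' median exceeded it by 0.45 under each of the 3 scalings, as a scaling shifts all genes nearly alike by construction. In the same order 24, 29 and 0 members were called higher, against 39.3%, 49.8% and 0.0138% of all genes (53.7%, 64.5% and 0.0142% of all calls). Under the last scaling 36 of 37 members were called lower, as were 97.3% of all genes. Directions against input are therefore directions relative to the bulk of genes. The gap between the members' median and that of all features was 0.43 with non-overlapping windows. With distinct windows tested one by one it was 0.98.

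**Figure D1:**
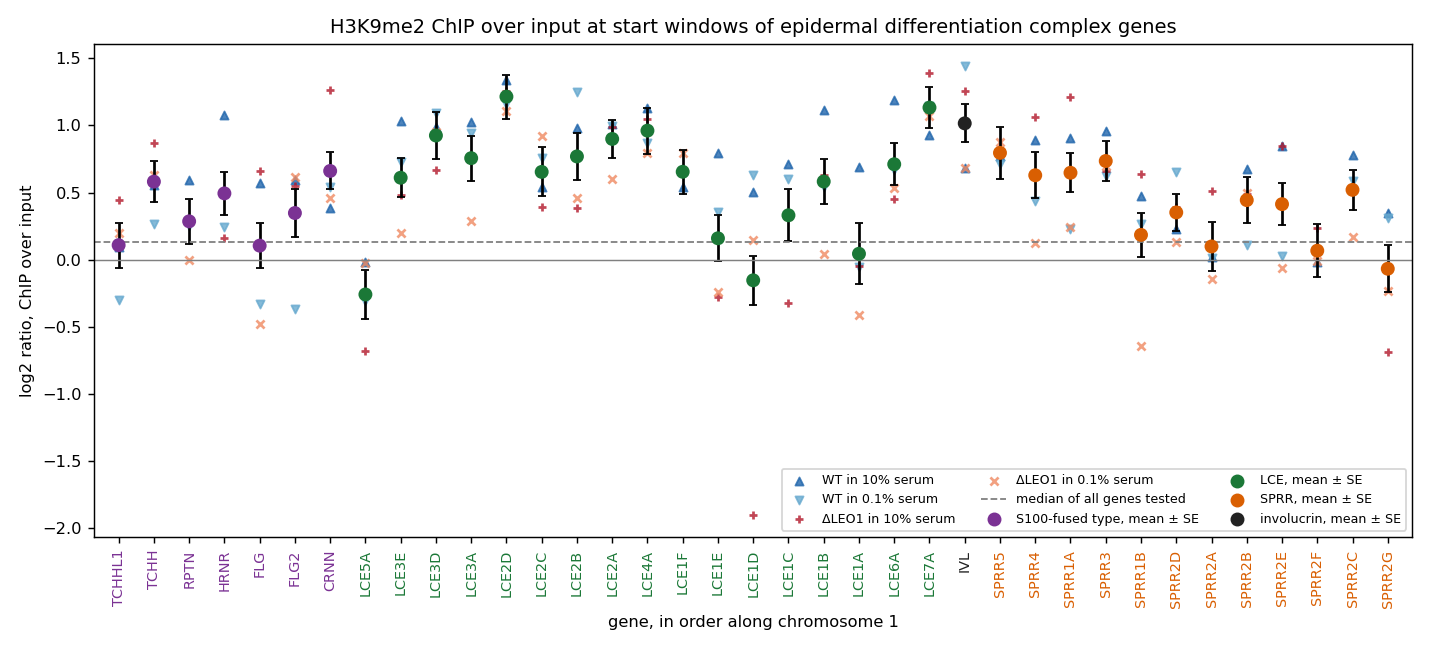
H3K9me2 ChIP over input at the start windows of the 37 members with reads, in order along chromosome 1. Large points with bars give the fitted log2 ratio as the mean of the 4 conditions ± SE, coloured by family, small symbols give each condition, and the dashed line is the median of all genes tested (0.13). LCE2D, LCE7A and IVL stand highest at 1.22, 1.13 and 1.02, and LCE5A lowest at -0.26.

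Among the LCE genes, whose products are small cysteine-rich proteins of the late envelope, the median log2 ratio was 0.65. Of 17, 12 were called higher, against 39.3% of all genes. LCE2D was the highest member. Its ChIP level was lowest at 8.42, median 9.71 and highest at 12.04 CPM in 7 libraries, against 2.10, 4.20 and 4.85 in the 8 inputs, so that the ranges did not overlap. The log2 ratio was 1.22 ± 0.16 (SE, edgeR adjusted p = 6.99e-07). LCE7A lies at the end of the LCE array nearest to involucrin. It gave 8.65, 11.04 and 13.6 in ChIP against 2.67, 4.79 and 6.09 in input, again with every ChIP library above every input. Its log2 ratio was 1.13 ± 0.15 (edgeR adjusted p = 5.08e-07). The LCE2 group (4 of 4 called higher, median 0.83) and the 3 LCE3 genes with reads (3 of 3, median 0.76) stood above the LCE1 group (2 of 6, median 0.24). The LCE1 median was the lowest of these groups in each of the 4 conditions, and lowest of all in ΔLEO1 in 10% serum, with its single ChIP library. No test was made between the groups. The low end was also held by LCE genes. LCE5A gave 2.63, 4.35 and 5.62 in ChIP and 4.33, 4.95 and 5.93 in input, overlapping ranges with a log2 ratio of -0.26 ± 0.18 (edgeR adjusted p = 0.202). LCE1D gave 0.971, 5.21 and 9.02 in ChIP and 3.81, 4.22 and 5.60 in input, with a log2 ratio of -0.16 ± 0.18 (edgeR adjusted p = 0.455). The value of 0.971 is that of the single ΔLEO1 10% serum library, which held 2 reads at LCE1D and alone stands for its condition. In each of the other conditions mean ChIP at LCE1D lay above mean input. Whether LCE1D would be among the lowest members without that library was not tested.

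Involucrin, the early scaffold of the envelope, lies between the LCE and SPRR genes. In ChIP it gave 6.42, 11.2 and 13.2 CPM (lowest, median, highest), and in input 3.05, 4.56 and 5.88. The ranges did not overlap and the log2 ratio was 1.02 ± 0.14 (edgeR adjusted p = 1.13e-06).

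The SPRR genes encode the cross-bridging proteins of the envelope. Of these, 8 of 12 were called higher, against 39.3% of all genes. The median log2 ratio of the 12 was 0.43, from -0.07 for SPRR2G to 0.80 for SPRR5. SPRR2G gave 3.40, 5.37 and 9.17 CPM in ChIP and 4.68, 5.05 and 7.63 in input, which overlap (edgeR adjusted p = 0.733). The SPRR2 genes (median 0.35, 4 of 7 called) are near-copies of one another, as are many LCE genes, and how reads that match several places were treated is not given in the sources used here, so values of single paralogs are uncertain.

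The S100-fused type genes, which join a calcium-binding domain to long repeats, gave a median log2 ratio of 0.35. Of these 7 genes, 3 were called higher, near the 39.3% of all genes. They were CRNN (cornulin), TCHH (trichohyalin, of the hair follicle) and HRNR (hornerin). TCHH gave 5.21, 7.63 and 9.40 CPM in ChIP against 3.99, 4.85 and 6.59 in input, and its log2 ratio was 0.58 ± 0.16 (edgeR adjusted p = 0.00184). FLG, filaggrin, gave 2.81, 4.78 and 8.74 in ChIP and 3.53, 5.08 and 6.29 in input. Its ratio of 0.10 ± 0.17 did not pass the test (edgeR adjusted p = 0.591). Every ChIP library lay above every input library in 6 members, CRNN, LCE3D, LCE2D, LCE2A, LCE7A and IVL (16.2% of 37), close to the 14.6% of all genes for which this held, and in 0 members did every ChIP library lie below, against 20.4% of all genes.

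Within single conditions the members' median log2 ratio was 0.71 in wild type in 10% serum, 0.54 in wild type in 0.1% serum, 0.55 in ΔLEO1 in 10% serum and 0.28 in ΔLEO1 in 0.1% serum, where the medians of all genes lay between 0.05 and 0.13. In the same order 19, 11, 6 and 9 members were called higher, where 29.7%, 20.1%, 14.4% and 19.6% of all genes were called higher. Of the 37 members only LCE1D was called lower in any of these 4 tests, where 27.3%, 23.9%, 17.1% and 23.8% of all genes were called lower. This was in ΔLEO1 in 10% serum, where LCE1D had 2 reads in the single ChIP library. IVL, LCE2D and LCE7A were called higher in each of the 4 conditions.

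Reads were also summed over all members. Summed over all windows, the 4 wild-type ChIP libraries gave 308.3 to 348.7 CPM, the ΔLEO1 10% serum library 324.0 and the ΔLEO1 0.1% serum libraries 268.5 and 275.8, against 197.2 to 223.1 in the 8 inputs. All 7 ChIP libraries were above all 8 inputs. The ratio of mean ChIP to mean input was 1.71 in wild type in 10% serum, 1.47 in wild type in 0.1% serum, 1.53 in ΔLEO1 in 10% serum and 1.28 in ΔLEO1 in 0.1% serum. This order of the genotypes depended on the scaling. Per read over peak regions, the ratio was 0.436 in wild type in either serum, 0.523 in ΔLEO1 in 10% serum and 0.479 in ΔLEO1 in 0.1% serum, and the ΔLEO1 0.1% serum pair was the highest of the ChIP libraries instead of the lowest. Overlapping windows of one gene count some reads more than once in these sums.

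**Figure D2:**
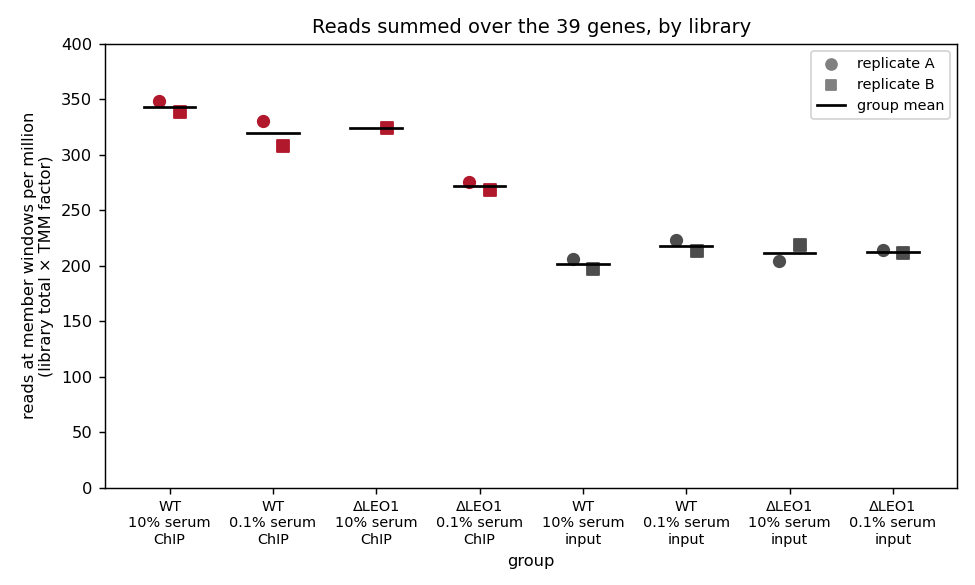
CPM at the members' windows, summed over the 39 genes and all their windows, for each of the 15 libraries used (circle, replicate A; square, replicate B; line, group mean). ChIP libraries (red) lie between 268.5 and 348.7, all above the inputs (grey, 197.2 to 223.1), and the ΔLEO1 0.1% serum pair is the lowest of the ChIP libraries on this scale and the highest per read over peak regions.

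On the TMM scale, the median ratio was above 0 over the stretch that holds the members and below 0 in its flanks, where a minority of windows lay above 0. Over single windows, with 0.1 CPM added to both sides, the median log2 ratio of ChIP over input was 0.57 in the 46 member windows with input reads and 0.34 in the 34 other windows between the first and the last member. It was -0.52 in 267 windows of the 1 Mb before and -0.93 in 175 windows of the 1 Mb after. The ratio was above 0 in 97.8%, 61.8%, 16.5% and 19.4% of these windows. The place of 0 belongs to this scale. With reads over peak regions as library sizes the fitted ratio was below 0 in all 37 members, and these windows were not rescaled in that way. Windows overlap and are not independent, so no test was made.

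Other genes of the pathway were compared by lists, beside the 39.3% of all genes called higher and 33.8% called lower. Of 9 other genes of the complex that lie among or beside the members, 6 were called higher and 0 lower (median 0.49). They include SMCP at 1.01 ± 0.15 (edgeR adjusted p = 2.74e-06), a sperm mitochondrial protein gene, KPRP at 0.87 ± 0.18 (edgeR adjusted p = 0.000134), keratinocyte proline-rich protein, and LORICRIN at 0.57 ± 0.15 (edgeR adjusted p = 0.00124), the main protein of the envelope. The 17 S100 genes of the same chromosome band were divided, 5 called higher and 10 lower (median -0.49). Those called higher were S100A7, S100A7A, S100A7L2, S100A8 and S100A12, among them S100A8 and S100A12, which are abundant in white blood cells, and S100A7, which is raised in inflamed skin. S100A9, the partner of S100A8, lay on the other side of 0 and did not pass the test (-0.41 ± 0.22, edgeR adjusted p = 0.0942). Those called lower included S100A10 at -1.94 ± 0.16, S100A6 at -1.60 ± 0.18, S100A4 at -1.28 ± 0.14 and S100A11 at -1.15 ± 0.19. These are widely expressed in fibroblasts but are only part of the 10 called lower, and S100A4 is also among the fibroblast genes below. At S100A2 and S100A14 the ChIP medians were 2.34 and 3.61 CPM per window, against 5.50 and 5.45 in input. Whether the S100 genes divide by their expression was not tested. S100A10 gave 0.658 to 2.91 CPM per window in ChIP and 4.81 to 7.74 in input, with no overlap.

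Of 22 cornification genes at other loci that were tested, 6 were called higher and 11 lower (median -0.35), against 39.3% and 33.8% of all genes. The desmosome genes DSC1 (0.98 ± 0.16) and DSG1 (0.77 ± 0.16), the protease CASP14 (0.85 ± 0.14) and the transglutaminases TGM3 (0.64 ± 0.15) and TGM5 (0.44 ± 0.12) were called higher along with CSTA, whereas the transcription factors PRDM1 (-1.89 ± 0.12), KLF4 (-1.26 ± 0.15), ZNF750 (-0.81 ± 0.20), GRHL3 (-0.78 ± 0.12) and OVOL1 (-0.63 ± 0.18) were called lower. The other 6 called lower were no transcription factors: EVPL (-1.23 ± 0.15), which encodes the envelope protein envoplakin, the lipoxygenases ALOX12B (-1.01 ± 0.14) and ALOXE3 (-0.75 ± 0.15), the proteases KLK14 (-1.11 ± 0.20) and KLK5 (-0.38 ± 0.16), and SPINK5 (-0.68 ± 0.14), a protease inhibitor. The transcription factors TP63 and GRHL1 were called neither way, with ChIP medians of 4.53 and 4.18 CPM per window against 5.05 and 5.02 in input. Of 17 fibroblast genes, 15 were called lower and 1, COL6A1, higher (median -1.49). VIM, the gene of the intermediate filament vimentin, stood at -3.65 ± 0.18, with 0.178 to 0.971 CPM per window in ChIP and 5.41 to 8.14 in input, and COL1A1, a chain of type I collagen, at -2.66 ± 0.13. Of 268 keratin and keratin-associated genes tested, 194 were called higher and 18 lower (median 0.68), and of 78 ribosomal protein genes 4 higher and 68 lower (median -1.27).

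**Figure D3:**
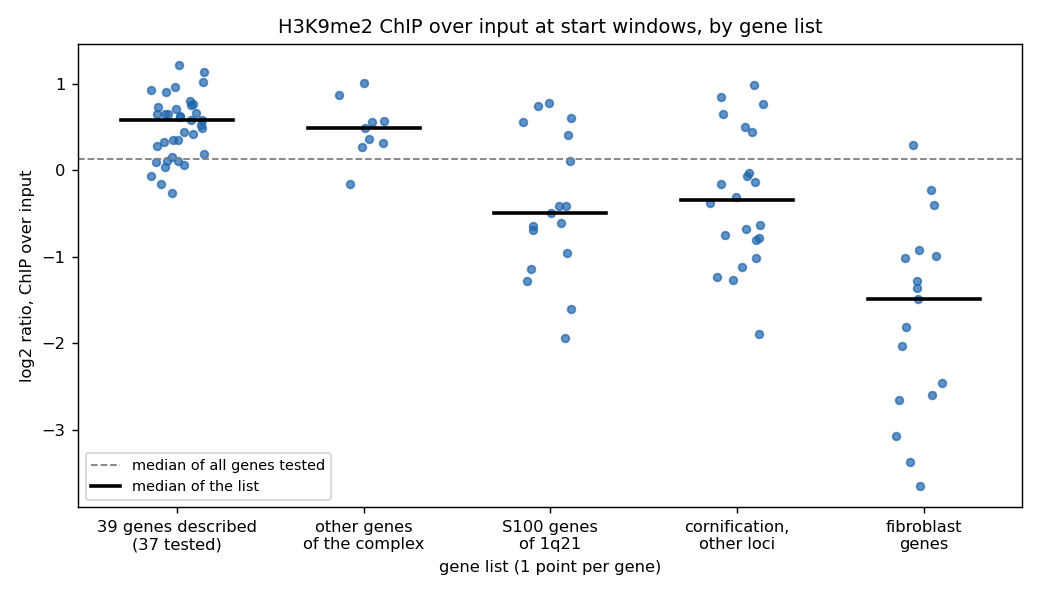
Fitted log2 ratio of H3K9me2 ChIP over input for each gene (points) of 5 lists, with the list median (black line) and the median of all genes tested (dashed). The described members (median 0.58) and the other genes of the complex (0.49) lie mostly above the dashed line, the S100 genes (-0.49) and cornification genes elsewhere (-0.35) on both sides, and the fibroblast genes (-1.49) mostly below.

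Peak regions, the intervals that the authors called as enriched, gave a second view of the locus. Of 16092 peak regions, 7 lay between the first and the last member, or 6.58 per Mb against 4.74 per Mb on chromosome 1. Of these, 5 were in the last exon (exon 3 of 3) of S100-fused type genes, 1 in TCHH, 1 in HRNR and 3 in FLG2, and the other 2 were intergenic, nearest to CRNN and to SMCP. The last exons of these genes hold long tandem repeats, where the placing of reads is uncertain. Because the peaks were called for enrichment, their ratio of ChIP to input is given as a description. In a fit over all peak regions, scaled to reads over them, the log2 ratio had a median of 0.16 over the 7 and of -0.01 over all, and 0 of the 7 were called, where 0.261% of all peak regions were (edgeR), so a difference from peak regions elsewhere was not detected.

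The last-exon peaks lay 4226 to 8563 bp from the start of their genes, and ChIP there was 2.93-fold to 3.95-fold the input, where the start windows of the same 3 genes gave 1.21-fold to 1.54-fold. In FLG2, a filaggrin-like gene, the peak at chr1:152350672-152352214 gave 6.77 to 13.2 CPM per kb in ChIP and 1.66 to 3.71 in input, with no overlap. In HRNR the peak at chr1:152218945-152220996 gave 5.28 to 9.71 in ChIP and 1.58 to 3.04 in input. In TCHH the peak at chr1:152108080-152109221 gave 5.98 to 14.7 and 2.11 to 4.09. ChIP lay above input in every library of all 3. The peaks had been called for enrichment and the start windows had not, so the contrast between them is a description.

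**Figure D4:**
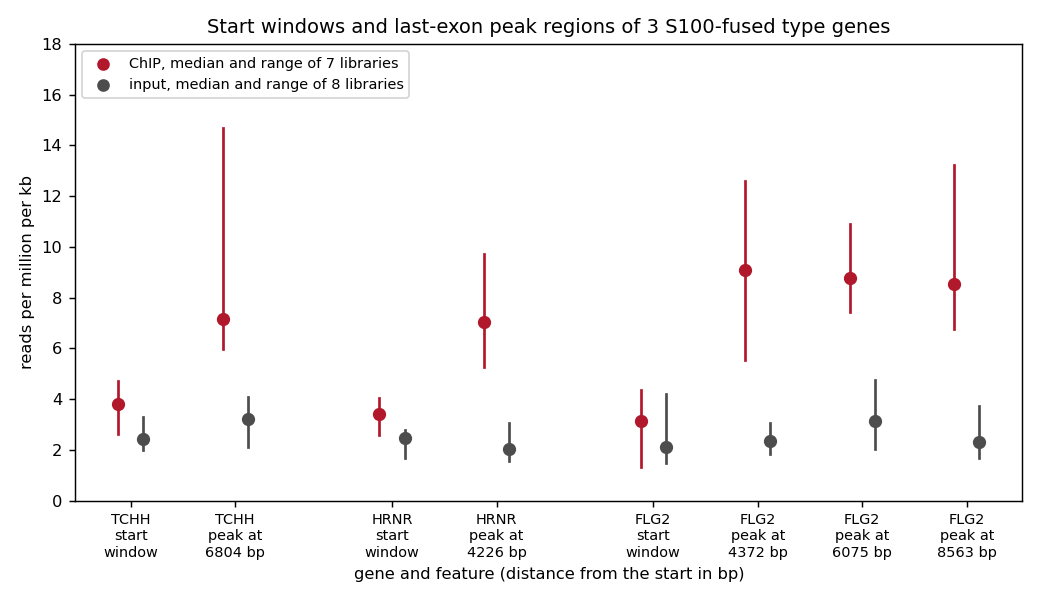
CPM per kb at the start window and at the last-exon peak regions of TCHH, HRNR and FLG2, as the median (point) and range (line) of 7 ChIP libraries (red) and 8 inputs (grey). ChIP and input ranges are apart at all 5 peaks, which were called for enrichment, with ChIP 2.93-fold to 3.95-fold the input. The ranges overlap at the 3 start windows.

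Loss of LEO1 in quiescent cells was the next comparison. No member passed the test (0 of 37), and the fitted differences between ΔLEO1 and wild type in 0.1% serum lay mostly below 0 at SPRR genes, involucrin and LCE genes and on both sides of 0 at S100-fused type genes. In the same edgeR test, 0.0113% of 52966 genes were called, 6 genes, all lower and none of them a member. With non-overlapping windows only, 1.06% of 50774 genes were called, 167 higher and 369 lower, and 0 members. With reads over peak regions as library sizes, 57 genes were called, 48 higher and 9 lower, again with 0 members. The fitted log2 difference, ΔLEO1 minus wild type, was below 0 in 28 of 37 members (75.7%) and in 51.1% of all genes, and its median was -0.28 over members and -0.01 over all genes. An unadjusted p under 0.05 was reached by 4 of 37 members (edgeR), near the 10.1% of all genes, and DESeq2 also called 0 members and 0.071% of all genes.

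By family, the difference was below 0 in 11 of 12 SPRR genes (median -0.37), in 13 of 17 LCE genes (median -0.28), in IVL and in 3 of 7 S100-fused type genes (median 0.02). The ΔLEO1 pair lay below the wild-type pair without overlap in 12 members (32.4%), where this held for 21.2% of all genes, and above it in 2 members, FLG2 and LCE7A (5.41%), against 20% of all genes. These members are neighbours of one cluster and were not treated as replicates.

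SPRR1B gave 5.83 and 6.77 CPM in wild type and 2.99 and 3.21 in ΔLEO1 (replicates A and B), from 19, 18, 11 and 8 reads. The pairs did not overlap, and the log2 difference was -0.89 ± 0.32 (SE, edgeR adjusted p = 0.376). LCE3E gave 9.81 and 7.52 in wild type and 5.16 and 4.41 in ΔLEO1, a difference of -0.78 ± 0.28 (edgeR adjusted p = 0.363). Both were among the lower pairs without overlap. Involucrin gave 13.2 and 11.3 in wild type and 7.88 and 6.42 in ΔLEO1, a difference of -0.72 ± 0.26 (edgeR adjusted p = 0.369), and in ΔLEO1 it was still above the highest input of 5.88. The largest difference upwards was at FLG2, with 3.99 and 2.63 in wild type and 6.25 and 7.22 in ΔLEO1 (0.85 ± 0.32, edgeR adjusted p = 0.400). The next were TCHHL1 at 0.30 ± 0.33 and LCE2C at 0.28 ± 0.30, and each turned below 0 when 1 ΔLEO1 library was left out. FLG and TCHH stood at -0.17 ± 0.35 and 0.02 ± 0.29, within their errors of 0. In the fit over peak regions, scaled to reads over them, the last-exon peaks of FLG2 gave 0.10 ± 0.27, 0.53 ± 0.25 and -0.28 ± 0.27. They did not share the direction of its start window.

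**Figure D5:**
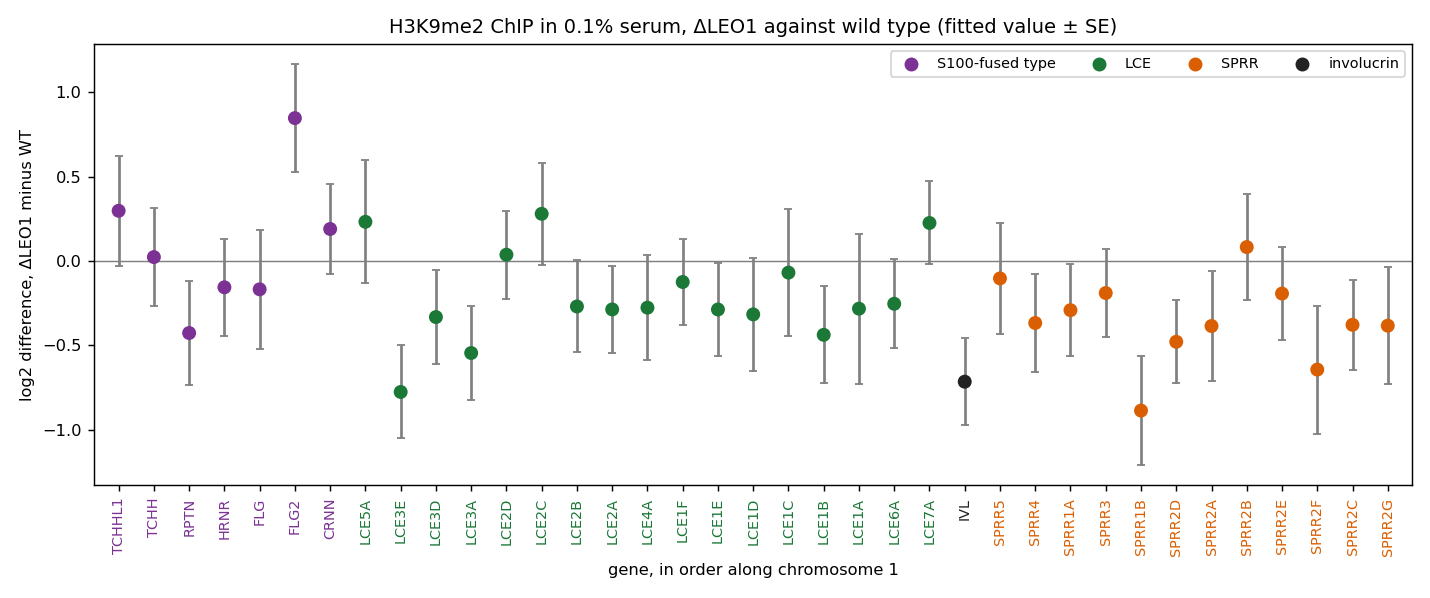
Fitted log2 difference in H3K9me2 ChIP between ΔLEO1 and wild type in 0.1% serum (points, ± SE) for the 37 members, in order along chromosome 1 and coloured by family. Of 12 SPRR genes 11 lie below 0, while FLG2 stands at 0.85, and 0 of the 37 pass the test.

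Library totals set the middle of all genes near 0, so none of these fits can show a change of the mark across the whole genome, and fly spike-in scaling was not used here. With reads over peak regions as library sizes, the median over all genes became 0.29 and that of the members 0.01, so the direction of the members' median turned. It stayed 0.28 below that of all genes (0.27 with TMM), as such a scaling shifts all genes nearly alike. With input taken into account in 1 model, the members' median difference was -0.14, against 0.016 over all genes. It was below 0 in 26 of 37 members and in 48.6% of all genes, with 0 members called and 0.00521% of all genes called. By family, 8 of 12 SPRR genes were then below 0 (median -0.13), as were 14 of 17 LCE genes (median -0.28), IVL and 3 of 7 S100-fused type genes (median 0.25). Counts were also simulated at this depth, with the changed genes drawn at random from all genes tested. The test recovered 8% of genes changed by 1 log2 unit and 94.5% of genes changed by 2. Differences of the sizes fitted here would therefore mostly not be called at such genes. Recovery at the read counts of the members was not measured.

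The same contrast in proliferating cells had 1 ΔLEO1 library. In 10% serum 0 members were called by edgeR, where 0.00378% of all genes were called, and 2 members had an unadjusted p under 0.05, as had 8.75% of all genes. The median difference was -0.014 over members (20 of 37 below 0), against -0.011 over all genes (51% below 0). The median was below 0 in the LCE genes (-0.24, 14 of 17 below 0). It was above 0 in the S100-fused type genes (0.41, 6 of 7 above 0) and the SPRR genes (0.10, 7 of 12 above 0). LCE1D had 2 reads in ΔLEO1 and 19 and 13 in wild type, a log2 difference of -1.96 ± 0.64 (edgeR adjusted p = 0.398). LCE1E and SPRR2G followed at -0.97 ± 0.37 and -0.93 ± 0.50, and the largest differences upwards were at FLG2 (0.61 ± 0.38), FLG (0.49 ± 0.40) and LCE7A (0.46 ± 0.32). These values rest on 1 library whose spread is assumed to be that of the other groups.

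Entry of wild-type cells into quiescence was compared next. In 0.1% against 10% serum, edgeR called 0 of 37 members and 0% of all genes. With non-overlapping windows it called 0 members and 0.534% of 50774 genes. In the main fit, 1 member and 9.07% of all genes had an unadjusted p under 0.05, and DESeq2 called 0 members and 0.00507% of all genes. The median log2 difference was -0.09. It came to 0.046 without the wild-type 0.1% serum library B and -0.18 without library A, so its sign rests on single libraries. SPRR2D, which has 3 overlapping windows, gave 5.71 and 6.71 CPM per window in 10% serum and 9.91 and 8.02 in 0.1% serum, a difference of 0.56 ± 0.25 (edgeR adjusted p = 0.532). LCE1F and LCE3D followed at 0.47 ± 0.27 and 0.38 ± 0.28, and the largest differences downwards were at LCE1A (-0.65 ± 0.40), FLG2 (-0.56 ± 0.34) and SPRR2E (-0.53 ± 0.26). Involucrin stood at 0.37 with both 0.1% serum libraries above both 10% serum libraries, as in 3 members (8.11%, against 17.2% of all genes), and 8 members lay lower without overlap (21.6%, against 23.6%).

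In ΔLEO1, 0.1% against 10% serum again gave 0 called members, where edgeR called 0.00189% of all genes, and 4 members and 10.0% of all genes had an unadjusted p under 0.05. The median was -0.24 over members, with 26 of 37 below 0, against 50.5% of all genes. It was -0.41 over SPRR genes (11 of 12 below 0), -0.32 over S100-fused type genes (6 of 7 below 0) and 0.07 over LCE genes (9 of 17 above 0). FLG stood at -1.01 ± 0.42, SPRR1B at -0.95 ± 0.42 and SPRR1A at -0.90 ± 0.33, while LCE1D (1.91 ± 0.64), LCE5A (0.66 ± 0.53) and LCE1C (0.65 ± 0.53) lay highest, all against the single 10% serum library. This contrast and the one between genotypes in 0.1% serum share the ΔLEO1 0.1% serum libraries. The interaction, which asks whether the serum difference itself differs between genotypes, was called in 0 of 37 members and 0% of all genes (smallest edgeR adjusted p over members 0.825, 2 members and 5.92% of all genes with an unadjusted p under 0.05). Its median over members was -0.16.

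The inputs gave the background for these contrasts. At the members, 0 of 37 were called in input between genotypes or between sera by edgeR, where 0.00174% and 0% of all genes were called, and the members' input sums were 201.4 ± 6.01 in wild type in 10% serum, 218.1 ± 7.06 in wild type in 0.1% serum, 211.5 ± 10.5 in ΔLEO1 in 10% serum and 212.5 ± 1.96 CPM in ΔLEO1 in 0.1% serum (SD, n = 2). At the peak regions of the locus, 0 of 7 were called between genotypes in 0.1% serum. Over all 16092 peak regions 0.0621% were called. The intergenic peak near SMCP gave 6.44 CPM per kb in wild type and 11.3 in ΔLEO1 in 0.1% serum (means of 2), and 10.9 (mean of 2) and 4.26 (1 library) in 10% serum, so the order of the genotypes was opposite in the 2 sera. The fit over peak regions, scaled to reads over peaks rather than over genes as these CPM are, gave a log2 difference of 1.05 ± 0.41 in 0.1% serum (edgeR adjusted p = 0.406 over all peak regions).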

How the data were processed

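H3K9me2 ChIP-seq and input libraries of BJ-5ta cells were analysed from 2 tables of raw read counts that the authors deposited, whole numbers without scaling, over 272902 start-site windows and 16092 merged peak regions. The submitters' processing notes name bcl2fastq 2.20.0.422, STAR 2.7.10a, HOMER and the builds hg38 and dm6, and the methods of the study name csaw and a fly spike-in. The tables held 0 fly rows. The handling of duplicate and multi-mapping reads and the libraries used for peak calling are not given in the sources used here.

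Windows with identical coordinates were counted once and summed per gene. The members and gene lists were chosen with earlier results of these data known. Counts were tested with edgeR 4.0.16 in R 4.3.3 (glmQLFit with a trended dispersion, filterByExpr with a minimum count of 10, TMM, prior count 2, two-sided), with 7 ChIP libraries, 15 ChIP and input libraries or 8 inputs per fit and 1 coefficient per group. Genes with a Benjamini-Hochberg adjusted p under 0.05 over all genes were called. Standard errors were derived from the F statistic. Named were FLG, IVL and TCHH, the 3 highest and 3 lowest members for ChIP over input, and for each ChIP contrast called members or else the 3 largest differences each way with at least 10 reads in every library of the higher group. Other genes are given for their place in a list. Alternatives were no filter, library totals, reads over peak regions as library sizes, non-overlapping windows, distinct windows, DESeq2 1.42.0, the replicate letter as a block, the left-out library put back, only the 4 libraries compared, and each library left out. The code was tested on simulated counts. The reads carry no molecular identifiers and are not independent molecules, so limits cover counting error only.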

Additional observations from a re-analysis of the deposited data

How the results depend on the processing

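Of the alternatives, those for calls between genotypes and between sera left 0 members called throughout. For ChIP over input, members called higher numbered 14 with DESeq2 (26.2% of all genes) and 21 with non-overlapping windows (33.9% of all genes). With distinct windows they numbered 33, a member counting by its lowest adjusted p, against 36.5% of all windows. They numbered 0 with peak-region totals as library sizes (0.0138% of all genes), where 36 members and 97.3% of all genes were called lower. The members' median was 0.83 with library totals, -0.97 with peak-region totals and 0.45 with non-overlapping windows. It was 0.95 with distinct windows, against -0.03 over all windows, and 0.48 with the left-out library put back. Without single libraries it was 0.49 to 0.58. With peak-region totals LCE2D, LCE7A, IVL, FLG and TCHH came to -0.33, -0.44, -0.55, -1.42 and -0.97. LCE5A came to 0.094 with distinct windows, LCE1D to 0.078 with library totals and 0.19 with distinct windows, FLG to -0.026 with non-overlapping windows, and SPRR2G to 0.17 with library totals, 0.29 with distinct windows, and -0.17 to 0.013 without single libraries, above 0 without wild-type 10% serum ChIP library B (0.0028) or ΔLEO1 0.1% serum ChIP library A (0.013). Apart from the scalings, whose construction shifts all genes alike, the cause was not tested.

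With peak-region totals the median difference between genotypes was 0.014 in 0.1% serum, 0.18 in 10% serum and 0.18 in 0.1% serum with input in the model; that between sera was 0.049 in wild type and -0.022 in ΔLEO1, and the interaction -0.073. With the left-out library put back, the serum median in ΔLEO1 was -0.16 and the interaction -0.071. Leaving out single libraries gave -0.33 to -0.21 between genotypes in 0.1% serum, -0.041 to 0.036 in 10% serum, -0.28 to -0.11 with input in the model, -0.18 to 0.046 between sera in wild type, -0.21 to -0.16 in ΔLEO1, -0.28 to -0.087 for the interaction, and -0.027 to 0.033 and 0.035 to 0.15 for input between genotypes and between sera. In 0.1% serum, TCHHL1 ranged from -0.038 (without ΔLEO1 library A) to 0.54 and LCE2C from -0.14 (without ΔLEO1 library B) to 0.71, and between sera in wild type LCE3D ranged from -0.062 (without 0.1% serum library A) to 0.68. Leaving out the single ΔLEO1 10% serum library removes its group, so that alternative was not run. Over all genes, calls between genotypes in 0.1% serum numbered 0 to 553 and between sera in wild type 0 to 354 over the alternatives, and for ChIP over input 34456 to 155075, where more features were tested with distinct windows.

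Differences between A and B correlated from -0.057 to 0.111 between groups across 57627 genes. Counting noise weakens such correlations, so they do not settle whether the letters A and B pair the libraries. With the replicate block, 25 members were called higher for ChIP over input (median 0.57), the median between genotypes in 0.1% serum was -0.26 and the interaction -0.24, and 0 members were called in other contrasts. The peak regions of the locus were tested as an alternative chosen after seeing the data, with 0 of 7 called. Low read counts per window limit single genes. Of changes of 1 log2 unit between genotypes, 8% were recovered in simulated counts of genes drawn from all genes tested.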
